A study of Mus musculus with 16 samples.

Results

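Untreated kidneys of IL-33-deficient (IL-33 KO) mice were compared with untreated kidneys of wildtype (WT) mice across all 18132 genes measured. The 4 arrays were taken by their labels, as the 2 with genotype IL-33 KO and treatment control and the 2 with genotype WT and treatment control, of 16 arrays in all. The KO animals carried an Il33 deletion obtained from Merck Research Laboratories and backcrossed to C57BL/6J BomTac. Both groups are labelled control and described in the series as without treatment, and the general methods give young adult mice unless stated otherwise. Whether a control kidney could be a sham-operated one, the part of Il33 that is deleted, the sex of the mice and the set of animals to which these 4 kidneys belonged are not given in the sources used here. The other 12 arrays came from kidneys collected 24 h after unilateral ureteral obstruction (UUO), in which the left ureter is closed and the kidney behind it is injured, 7 from WT and 5 from IL-33 KO mice. They came in 2 sets, with 3 WT and 2 KO kidneys in set 1 and 4 WT and 3 KO kidneys in set 2. Arrays are named by the number in their label: WT 3811 and WT 3812, KO 3813 and KO 3814.

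IL-33 is a cytokine of the interleukin 1 family that is stored in the nucleus of endothelial, epithelial and stromal cells. When a cell is damaged the protein is released and binds ST2, encoded by Il1rl1, which pairs with the accessory chain Il1rap and signals through Myd88 and NF-kappaB in mast cells, group 2 innate lymphoid cells and regulatory T cells. Inside the nucleus it binds chromatin and has been proposed to act on transcription there. The untreated comparison asks what its lifelong absence leaves behind in a kidney that has not been injured.

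RNA of 1 kidney per array was hybridized to Illumina BeadChips, on which the brightness of a probe follows the amount of its transcript. The deposited values are linear intensities, 1 per gene, and all levels below are log2 of the quantile-normalized intensity. The lowest level on the 4 arrays was 6.59 and the median level 7.05, so a level near 7 is background, and 54.6% of genes had an intensity under 150 on all 4 arrays. Differences of such dim genes are compressed. The number of arrays limits the precision, and p-values measure the spread between these kidneys only. All 4 libraries had the makeup of kidney: Slc34a1, the sodium phosphate transporter of the proximal tubule, was at 14.30 and 14.20 in WT and at 14.35 and 14.22 in KO, and Umod, the uromodulin of the thick ascending limb, was at 13.91 and 13.73 in WT and at 13.80 and 13.52 in KO.

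No gene passed an adjusted p of 0.05 (limma, adjusted by Benjamini-Hochberg over the whole table, 0% of 18132). A more lenient threshold, which asks for more than a 1.3-fold difference and accepts an adjusted p up to 0.25 where the unadjusted one is below 0.05, was passed by 3 genes, 0.0165% of those tested: 1 rose (0.00552% of genes) and 2 fell (0.011%). Among them were Gpd2, which rose, and Angptl4, which fell. An unadjusted p under 0.05 was reached by 948 genes, 5.23% of all, of which 488 were lower in KO (2.69%) and 460 higher (2.54%). The 2 KO arrays lay entirely above or below the 2 WT arrays at 6165 genes, 34% of all. An exact permutation test of a single gene with 2 against 2 arrays cannot give a p under 0.333, so all tests here borrow the spread of other genes through limma.

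The kidneys of the 2 genotypes were about as alike as kidneys of 1 genotype. The correlation across genes was 0.996 between the WT arrays, 0.994 between the KO arrays and 0.994 to 0.996 between arrays of different genotype. More than 2-fold differences separated the WT arrays at 2 genes, the KO arrays at 8, and arrays of different genotype at 9 to 12. Differences between the genotypes held 36.2% of the sum of squares around the gene means, where 33.3% corresponds to their 1 of 3 degrees of freedom. The median size of a KO minus WT difference was 0.0528 on the log2 scale, and 95% intervals reached a median of 0.164 to either side. The difference of group means exceeded 1.3-fold at 86 genes, 1.5-fold at 22 and 2-fold at 8, of which 2 were higher and 6 lower in KO.

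**Figure D1:**
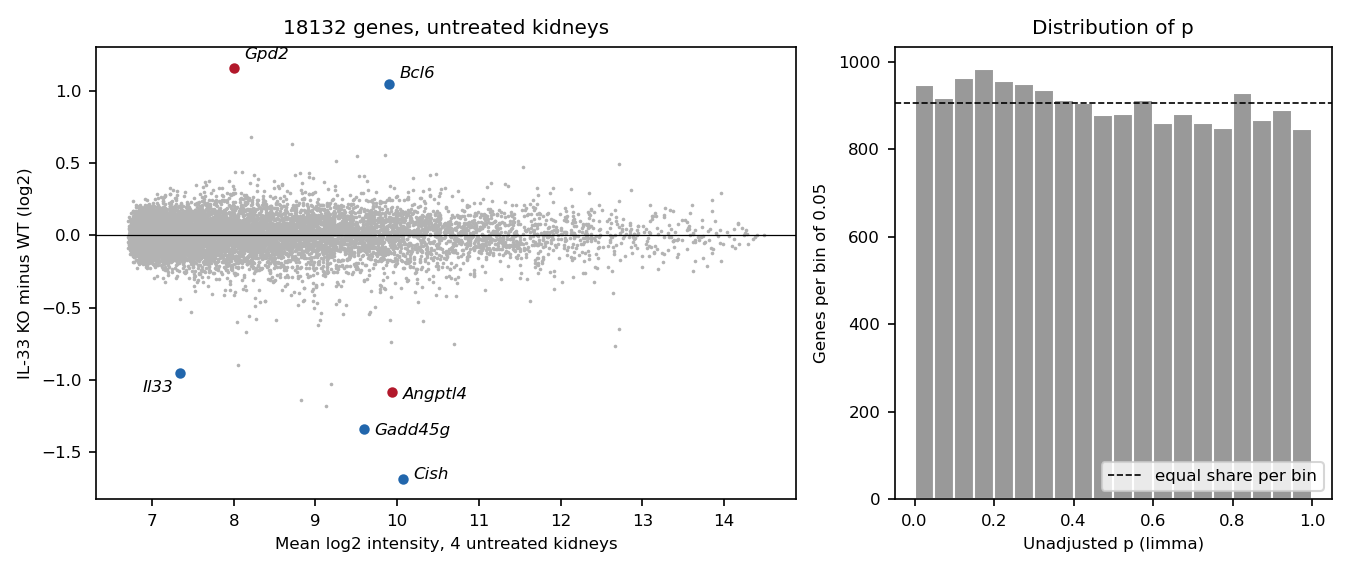
Left, the KO minus WT difference (log2) of each of 18132 genes against its mean log2 intensity over the 4 untreated kidneys. Red points are Gpd2 and Angptl4, which passed the lenient threshold, and blue points are Il33 and the other genes labelled. Right, the number of genes in each bin of unadjusted limma p, with a dashed line at an equal share per bin. The bins are nearly level, and 948 genes lie under 0.05.

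Il33, the deleted gene, had a log2 level of 7.62 and 8.02 in WT and of 6.88 and 6.85 in KO. Both KO kidneys were at background and both WT kidneys were modestly above it. The difference was -0.95 (standard error 0.127, 95% interval -1.26 to -0.64), with an adjusted p of 0.509 by limma. It ranked 10 by p and 9 by size among all genes. After UUO the gene was far brighter in WT, at 8.39 to 9.57 with a median of 9.44 in 7 kidneys, and again at background in the 5 KO kidneys, at 6.80 to 7.02 with a median of 6.88. The genotype difference there was -2.36 and was the only call at an adjusted p of 0.05 among genes after UUO (0.00552% of those tested).

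Of the 20 measured neighbours of Il33, 10 on either side along chromosome 19, 12 were higher and 8 lower in KO, and their median difference was 0.02. They ranged from -0.17 for Sgms1, a sphingomyelin synthase, to 0.14 for Cd274, the immune checkpoint ligand PD-L1. Cd274 alone had an unadjusted p under 0.05 (adjusted p = 0.945 by limma). Gldc, the glycine cleavage enzyme that lies close to Il33, was at 11.24 and 11.05 in WT and at 11.07 and 11.20 in KO.

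Gpd2, the mitochondrial glycerol 3-phosphate dehydrogenase that passes electrons from cytosolic NADH into the respiratory chain, was the gene with the smallest p. Its level was 7.52 and 7.32 in WT and 8.62 and 8.54 in KO. Both KO kidneys lay well above both WT kidneys, and the rise was 1.16 (standard error 0.084), or 2.23-fold, with an adjusted p of 0.122 by limma. Its partners in the glycerol phosphate shuttle, chosen after these values were seen, differed little: Gpd1, the cytosolic enzyme, by 0.04, Gpd1l by -0.07 and the glycerol kinase Gk by -0.04. After UUO, Gpd2 was between 7.012 and 8.005 in WT and between 7.206 and 7.908 in KO, so the groups overlapped, with a difference of 0.07. A test of the change in the genotype difference between untreated and obstructed kidneys gave an adjusted p of 0.973 by limma, with an unadjusted p under 0.05.

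Angptl4, a secreted inhibitor of lipoprotein lipase that is induced by fasting through PPAR receptors, was at 10.58 and 10.38 in WT and at 9.44 and 9.35 in KO. Every KO value was lower by more than the distance within either pair. The gene fell by 1.09 (standard error 0.085), or 2.12-fold, with an adjusted p of 0.122 by limma. After UUO its difference was -0.22, with opposite signs in the sets, 0.42 in set 1 and -0.68 in set 2. In bulk tissue, fewer cells of a type and less RNA per cell cannot be told apart.

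None of the 3 passed the lenient threshold when WT 3811, WT 3812, KO 3813 or KO 3814 was left out. Such a fit has 1 array on one side and takes its spread from the other group, with 1 residual degree of freedom, so a lost call there does not single out an array. The difference itself stayed between 1.06 and 1.74 for Gpd2 and between -1.19 and -0.99 for Angptl4 over all alternatives. None of the 3 passed in one model over all 16 arrays, whose error includes the larger spread of obstructed kidneys.

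Angptl4 belongs to a list of 18 measured genes of fatty acid oxidation and PPARA targets, the nuclear receptor program by which liver and kidney burn fat in the fasted state. It was the only one of 28 lists with members past the lenient threshold. In it, 13 genes were lower in KO and 5 higher, with a median difference of -0.07 against 0.00163 over all genes. At an unadjusted p under 0.05, 6 were lower, beside 2.69% of all genes. Of all genes 49.2% were lower in KO at any p, the share to hold beside the counts of this and later lists. Pdk4, the kinase that shuts pyruvate out of the citric acid cycle, was at 8.61 and 8.52 in WT and at 8.16 and 7.82 in KO (difference -0.58). Cyp4a14, a fatty acid omega-hydroxylase, was at 8.74 and 8.18 in WT and at 7.89 and 7.91 in KO (difference -0.56). Ehhadh of peroxisomal oxidation differed by -0.43 and the acyl-CoA dehydrogenase Acadl by -0.22. All 4 had an unadjusted p under 0.05, and none an adjusted p under 0.25. The receptor gene Ppara, at 6.92 to 7.08 on the 4 arrays, and the hormone gene Fgf21, at 6.77 to 6.97, were at background. Cpt1a, the gate of mitochondrial fatty acid import, differed by -0.05.

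Among genes that were nominally different (unadjusted p under 0.05) with groups that did not overlap, the 12 largest positive differences ran from 1.16 down to 0.42 and the 12 largest negative ones began at -1.68. Apart from the 3 genes above, their adjusted p lay between 0.258 and 0.924 by limma, so they are described and not called. Of the 8 genes of all that differed by more than 2-fold, 6 were among those with negative differences.

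**Figure D2:**
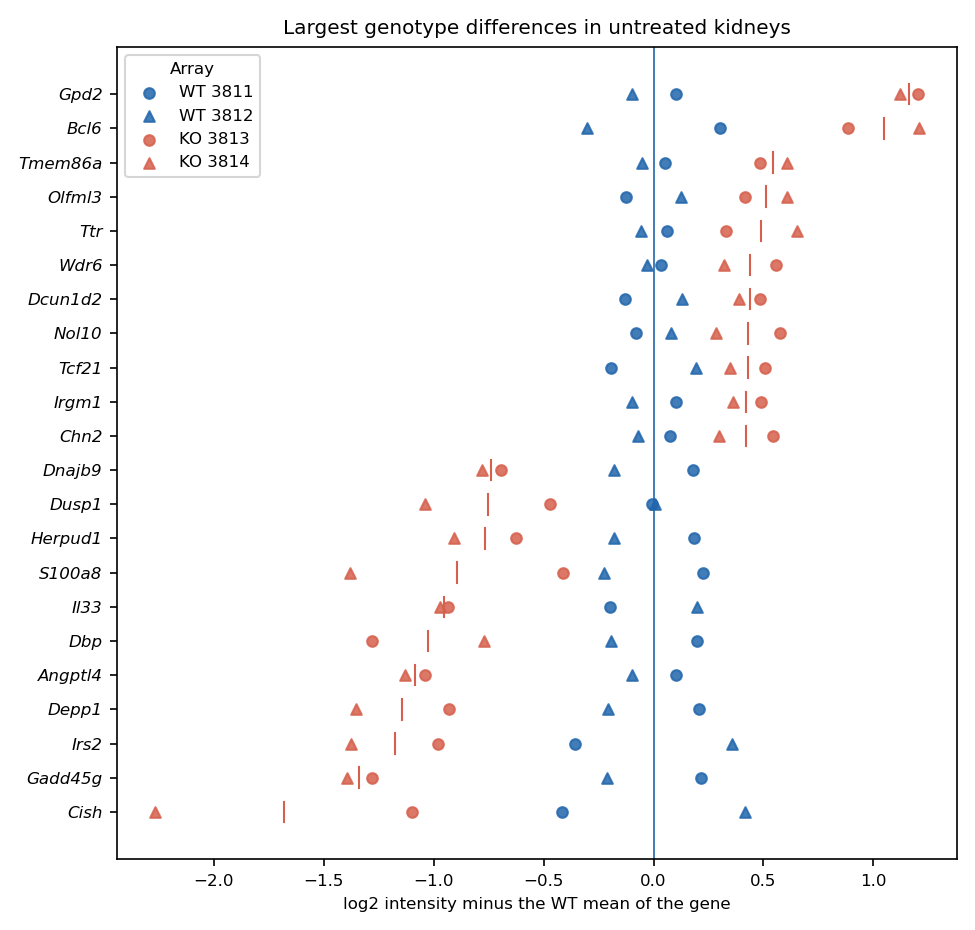
Each row is 1 gene among the 12 largest positive and 12 largest negative differences, and each symbol 1 array, drawn as log2 intensity minus the WT mean of that gene (vertical line at 0); short ticks mark the KO mean. The 2 KO arrays lie on the same side of the 2 WT arrays in every row, by the rule that chose the genes, while their distance from each other ranges from narrow at Il33 and Gpd2 to wide at Cish and S100a8.

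Cish had the largest difference of them. It encodes a suppressor of cytokine signalling that STAT5 induces within the hour after growth hormone or related cytokines bind their receptors. Its level was 10.49 and 11.33 in WT and 9.81 and 8.64 in KO. The arrays of each genotype were far apart, and the difference of -1.68 had a standard error of 0.417 (95% interval -2.70 to -0.66, adjusted p = 0.843 by limma). Bcl6, a transcriptional repressor that STAT5 is known to silence, differed the other way, at 9.68 and 9.08 in WT and at 10.27 and 10.59 in KO (difference 1.05, standard error 0.204). Irs2, the adaptor of the insulin and IGF1 receptors, was at 9.35 and 10.07 in WT and at 8.73 and 8.34 in KO (difference -1.18). Gadd45g, a growth arrest gene, was at 10.48 and 10.05 in WT and at 8.98 and 8.87 in KO, with an adjusted p of 0.258 by limma (difference -1.34, standard error 0.139).

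The start of the Cish transcript holds a pair of STAT5 motifs, TTCNNNGAA (the same on both strands), and is printed because Cish had the largest difference of all. The 30 bases lie at chr9:107296654-107296683 on the + strand of GRCm38.p6 (RefSeq), with the motifs in capitals:
Cish: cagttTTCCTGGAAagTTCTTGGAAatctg
The first of them begins at the transcription start of this entry. A match to TTCNNNGAA occurs in 8.30% of 32851 windows that run from 250 bases before to 50 after a gene's start, so a single match is common.

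A list of 13 measured genes of growth hormone and STAT5 signalling, chosen after these values were seen, did not differ as a whole: 8 were lower and 5 higher, with a median of -0.01. Socs2, another STAT5 target, was at 9.90 and 10.47 in WT and at 10.80 and 9.80 in KO, and its groups overlapped. Igf1 differed by -0.06, and Jak2, the kinase upstream of STAT5, by -0.18. Socs3, another suppressor of cytokine signalling, differed by -0.35.

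Dbp and Tef, transcription factors driven directly by the circadian clock, were both lower in KO. Dbp was at 9.90 and 9.51 in WT and at 8.43 and 8.94 in KO (difference -1.03), and Tef at 9.42 and 9.28 in WT and at 8.82 and 8.71 in KO (difference -0.58, adjusted p = 0.509 by limma). Per2, a repressor of the clock loop, was at 8.73 and 8.89 in WT and at 8.40 and 8.04 in KO (difference -0.59). Of the activators of the loop, Arntl and Clock were near the WT level. Arntl was at 8.08 and 8.02 in WT and at 8.17 and 7.92 in KO, and Clock differed by 0.02. Npas2, an activator that peaks out of phase with Dbp, was higher, at 7.02 and 7.19 in WT and at 7.41 and 7.43 in KO (difference 0.31). Of 19 clock genes measured, 14 were lower and 5 higher, with a median of -0.07. At p under 0.05 were 4 lower genes, Dbp, Tef, Per2 and the clock-driven deubiquitinase Usp2 (difference -0.31), and 1 higher, Npas2. Of all genes 2.69% were lower and 2.54% higher at that level. The hour of collection of each kidney is not given in the sources used here.

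Glucocorticoid targets had the largest median among the 28 lists, at -0.16 over 11 measured genes, of which 8 were lower. Without KO 3814 that median was -0.07. The other 3 members were higher, among them Fkbp5 with a difference of 0.02 and Sgk1 with 0.14. At p under 0.05 were 3 of the 11, Tsc22d3, Mt1 and Dusp1, all lower, beside 2.69% of all genes. Tsc22d3, the leucine zipper protein GILZ, was at 9.96 and 9.90 in WT and at 9.68 and 9.10 in KO (difference -0.54), and the metallothionein Mt1 was at 12.60 and 12.54 in WT and at 12.18 and 12.32 in KO (difference -0.32). Dusp1, a phosphatase of MAP kinases that is both a glucocorticoid target and an immediate early gene, was at 11.06 and 11.08 in WT and at 10.60 and 10.03 in KO (difference -0.75, adjusted p = 0.823 by limma). Immediate early genes, which are transcribed within minutes of a stimulus or of tissue handling, were lower at 17 of 24 members, with a median of -0.07. At p under 0.05, 5 of the 24 were lower, beside 2.69% of all genes: Dusp1, Jun, Zfp36, Junb and Socs3. Jun, a subunit of AP-1, differed by -0.27 and Zfp36, which destabilizes cytokine mRNA, by -0.33. Depp1, a FOXO target induced by fasting, was at 9.60 and 9.19 in WT and at 8.46 and 8.04 in KO, and its difference of -1.14 was among the 12 largest negative ones.

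Several genes for proteins that fold other proteins had lower levels in KO, none of them past adjustment. Hspa8, the constitutive cytosolic chaperone, was at 13.09 and 12.97 in WT and at 12.26 and 12.51 in KO (difference -0.65, adjusted p = 0.823 by limma). Of 13 heat shock genes measured 9 were lower, with a median of -0.08 that was -0.03 without WT 3811, -0.16 without WT 3812 and -0.18 without KO 3813. At p under 0.05 were 4 of the 13, all lower, beside 2.69% of all genes. They were Hspa8, the small heat shock protein Hspb1 (difference -0.47), the nucleotide exchange factor Hsph1 (-0.30) and the mitochondrial chaperonin Hspd1 (-0.16). In the endoplasmic reticulum, Herpud1, which helps to remove misfolded proteins, was at 13.23 and 12.86 in WT and at 12.42 and 12.14 in KO (difference -0.77). Dnajb9, a co-chaperone of BiP, was at 10.47 and 10.11 in WT and at 9.60 and 9.51 in KO (difference -0.74). Of 20 measured genes of the unfolded protein response, a list chosen after these values were seen, 15 were lower, with a median of -0.11. Xbp1, its transcription factor, differed by -0.37, Creld2 by -0.55 and the ubiquitin ligase Syvn1 by -0.21, all at p under 0.05, whereas the chaperone Hyou1 and the disulfide isomerase Pdia3 differed by 0.29 and 0.16 at the same level.

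Promoters of this response carry the ER stress elements to which ATF6 and XBP1 are known to bind, ERSE (CCAAT, 9 free bases and CCACG) and ERSE-II (ATTGG, 1 free base and CCACG), searched on both strands. They are shown for 3 of the 5 genes of the list that were lower at p under 0.05, from RefSeq on GRCm38.p6 with the element in capitals, all on the + strand, at chr8:94386337-94386427 for Herpud1 (ERSE-II), chr15:88819480-88819578 for Creld2 (ERSE, read on the opposite strand) and chr19:6046492-6046575 for Syvn1 (ERSE):
Herpud1: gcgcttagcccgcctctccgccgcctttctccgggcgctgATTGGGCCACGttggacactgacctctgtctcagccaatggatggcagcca
Creld2: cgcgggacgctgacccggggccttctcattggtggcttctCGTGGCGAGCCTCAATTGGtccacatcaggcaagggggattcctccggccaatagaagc
Syvn1: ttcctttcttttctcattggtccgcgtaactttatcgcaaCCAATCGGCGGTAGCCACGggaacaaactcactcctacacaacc
The elements begin 52, 126 and 44 bases before the transcription start. ERSE occurs in 0.119% and ERSE-II in 0.0365% of all 32851 windows. Of the 18 list members with a window, 9 held one or the other. Dnajb9 and Xbp1, also lower at p under 0.05, held neither in their windows. The match describes letters and not binding.

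The genes closest to IL-33 itself gave no call. Of 22 measured genes of its receptor and signalling chain, 10 were higher and 12 lower, with a median of -0.0038. Il1rl1, which encodes ST2, was at 6.84 and 6.89 in WT and at 6.97 and 6.81 in KO, and Il1rap at 6.90 and 6.94 in WT and at 6.95 and 6.89 in KO, all at background. The adaptor Myd88 was expressed, at 9.71 and 9.82 in WT and at 9.82 and 9.88 in KO. Besides Il33, 2 members had p under 0.05: Nfkbia, the inhibitor of NF-kappaB, with a difference of -0.26, and the subunit Nfkb1 with -0.29. All 3 were lower, and of all genes 2.69% were lower at that level. Among 23 measured genes that IL-33 or type 2 immunity is known to induce, none had an unadjusted p under 0.05. Of these genes, 19 had a mean level below the median of all genes, so that a loss could not have been detected there. Il13 was at 6.90 and 7.09 in WT and at 7.16 and 7.16 in KO. Of 14 other interleukin 1 family ligands and receptors 12 were lower, with a median of -0.03, and 1 of them, the IL-18 binding protein Il18bp, had p under 0.05 (difference -0.17).

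**Figure D3:**
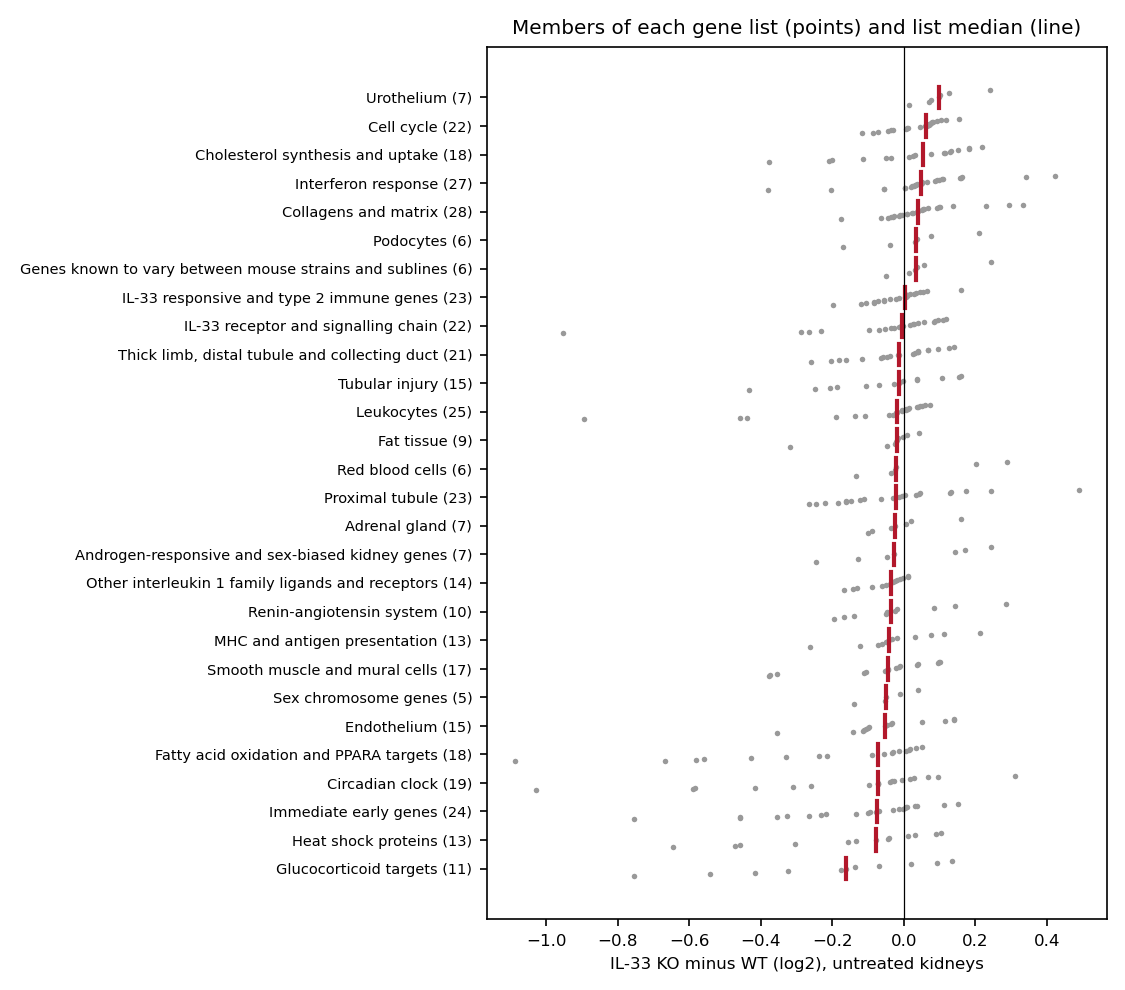
KO minus WT difference (log2) in untreated kidneys of every measured member (grey points, number measured in brackets) of 28 gene lists, with the list median as a red line. Medians lie between -0.16 for glucocorticoid targets and 0.10 for urothelium, and the points farthest from 0 belong to few genes in each list.

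Immune genes other than these were near the WT level for the most part. Leukocyte markers differed by a median of -0.02 over 25 genes. Of the 25 genes 10 were higher and 15 lower. The 3 at p under 0.05 were all lower, beside 2.69% of all genes, and are genes of myeloid cells. Lyz2, the lysozyme of macrophages, was at 9.17 and 8.99 in WT and at 8.72 and 8.52 in KO. S100a8, a neutrophil calcium-binding protein, was at 8.72 and 8.27 in WT and at 8.09 and 7.12 in KO. Its partner S100a9 was at 7.59 and 7.52 in WT and at 7.34 and 6.89 in KO (difference -0.44). KO 3814 was the lowest array for both. Other macrophage markers went both ways: Adgre1 differed by 0.006, Csf1r by 0.007, Cd68 by 0.05 and Mrc1 by 0.06, but C1qb by -0.19 and C1qc by -0.02. Interferon response genes were higher at 23 of 27 members with a median of 0.05, but those at p under 0.05 divided: the immunity-related GTPases Irgm1 and Igtp differed by 0.42 and 0.34, while Ifit3 and Mx2 differed by -0.38 and -0.20. Of 13 genes of MHC and antigen presentation, H2-DMb1, which loads peptides on class II molecules, was lower at that level (difference -0.26).

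Collagen and contractile genes were of interest because the study followed fibrosis. Col1a1, which encodes a chain of type I collagen, was at 7.38 and 7.53 in WT and at 7.44 and 8.13 in KO. Only KO 3814 was high, the groups overlapped, and the difference of 0.33 (standard error 0.210, adjusted p = 0.945 by limma) became -0.01 without that kidney. Col1a2, the other chain of the same fibre, was at 7.32 and 7.27 in WT and at 7.09 and 7.42 in KO, with a difference of -0.04 that became 0.12 without KO 3813. Col3a1, of type III collagen, was at 6.97 and 6.99 in WT and at 7.03 and 7.06 in KO, all near background. Over 28 measured matrix genes, 19 were higher and 9 lower, with a median of 0.04, which became -0.01 without KO 3814. Fibrillin 1 (Fbn1) differed by 0.30 and the collagen cross-linking enzyme Lox by -0.17, both at p under 0.05.

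After UUO the same collagens differed between the genotypes by 0.80 for Col1a1, 0.50 for Col1a2 and 0.52 for Col3a1 (adjusted p = 0.311 by limma for each, 0.274 to 0.279 with the set of mice as a block), and the median of the matrix genes was 0.28. Within set 1 these differences were 1.13, 0.83 and 0.74, and within set 2 they were 0.57, 0.27 and 0.36. Testing the change of the genotype difference from untreated to obstructed kidneys gave an adjusted p of 0.973 by limma for each of the 3 collagens, and of 0.940 to 0.944 with the block. With 2 untreated kidneys a group, the 95% interval of the untreated Col1a1 difference ran from -0.18 to 0.85 and so included the size seen after UUO. That of Col3a1 ran from -0.08 to 0.20 and that of Col1a2 from -0.32 to 0.23. Untreated levels of both were near background, where differences are compressed, so these 2 intervals may not bound the difference in transcript amount.

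Acta2, the smooth muscle actin of vessel walls and myofibroblasts, was at 9.79 and 10.30 in WT and at 9.64 and 9.70 in KO before injury. Both KO kidneys were lower than both WT kidneys, by a difference of -0.37 (95% interval -0.76 to 0.01, adjusted p = 0.945 by limma). The interval did not exclude a lack of difference, and groups lay apart in this way at 34% of all genes. WT 3812 was at 10.30, while the other WT kidney, at 9.79, lay closer to the KO kidneys than to it. After UUO every KO kidney was higher than every WT kidney. Levels were 10.18 to 10.88 (median 10.51) in 7 WT and 11.14 to 11.30 (median 11.20) in 5 KO kidneys. The difference was 0.67 (adjusted p = 0.233 by limma), 0.51 within set 1 and 0.78 within set 2. The change of the genotype difference had an adjusted p of 0.832 by limma, or 0.722 with the set of mice as a block, with an unadjusted p under 0.05. Of 17 smooth muscle and mural genes measured, Acta2 included, 12 were lower in untreated KO kidneys, with a median of -0.04 that was 0.02 without WT 3812. Vim, the intermediate filament vimentin, was lower at p under 0.05 (difference -0.38), and Pdgfrb, the receptor of pericytes and fibroblasts, differed by -0.01. Endothelial markers were lower at 11 of 15 with a median of -0.05, among them the junction molecule Esam at 10.50 and 10.47 in WT and at 10.27 and 9.98 in KO (adjusted p = 0.874 by limma).

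Epithelial markers had medians close to 0. The median was -0.02 over 23 proximal tubule genes, against -0.80 between the genotypes after UUO, and -0.01 over 21 genes of the thick limb, distal tubule and collecting duct. Ttr, the thyroxine carrier transthyretin, stood out at 12.52 and 12.41 in WT and at 12.79 and 13.12 in KO (difference 0.49, adjusted p = 0.823 by limma), and differed by -1.32 after UUO (adjusted p of the change 0.973 by limma). Kap, the androgen-regulated protein of proximal tubules, differed by 0.24, while the water channel Aqp1 and Dnase1 differed by -0.22 and -0.26. Injury markers did not separate the genotypes as a list, with a median of -0.01 over 15 genes. At p under 0.05 were 2 of them, the stress cytokine Gdf15 (difference -0.43) and the cell cycle inhibitor Cdkn1a (-0.25), both lower. Of all genes 2.69% were lower at that level. Havcr1, the injury molecule KIM-1, was at 7.24 and 7.22 in WT and at 7.07 and 7.37 in KO. The angiotensin 1-7 receptor Mas1 differed by 0.29 at p under 0.05.

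Other large positive differences belonged to genes of unrelated functions. Tmem86a, a lysoplasmalogenase, was at 9.29 and 9.18 in WT and at 9.72 and 9.84 in KO (difference 0.55, adjusted p = 0.509 by limma). Olfml3, a secreted matrix protein, differed by 0.51 and Tcf21, a transcription factor of kidney mesenchyme and podocytes, by 0.43. Wdr6, Dcun1d2, Nol10 and Chn2, a Rac GTPase-activating protein, differed by 0.42 to 0.44.

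Markers of tissues that can be taken along with a kidney were measured too. The 7 adrenal genes had a median difference of -0.02, and 6 of them had a mean level below the median of all genes. The same held for 7 of 9 fat genes, whose median difference was -0.02. Of the fat genes only Car3, a carbonic anhydrase, had an unadjusted p under 0.05, with a difference of -0.32 (adjusted p = 0.823 by limma). All 7 urothelial genes were slightly higher, with none at p under 0.05. Their median of 0.10, the highest of the 28 lists, was 0.02 without KO 3814. Hba-a1, a globin of red blood cells, varied between kidneys with overlapping groups: it was at 14.15 and 13.50 in WT and at 14.15 and 14.07 in KO. The Y-linked genes Ddx3y and Eif2s3y were expressed on all 4 arrays, at 8.84 to 9.02 and 8.92 to 9.18, while Xist was at background, the pattern of male kidneys on every array. Nnt, a gene partly deleted in C57BL/6J mice of some sources, was at background on all 4 arrays, and the list of genes known to vary between mouse strains had a median of 0.03 over 6 genes.

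The genotype differences of untreated kidneys were set beside those 24 h after UUO, which share no array with them. Of the 948 genes with an unadjusted p under 0.05, 517 had the same sign after UUO, or 54.5%, beside 51.5% of all genes. Of the 24 largest differences 14 had the same sign, 6 positive and 8 negative. At p under 0.05 after UUO were 7 of the 24, beside 10.3% of all genes, and 5 of those 7 had the same sign as before, among them Il33, Depp1, Herpud1 and Dusp1. The 2 with the other sign were Ttr and Chn2. With the set of mice as a block, 11 of the 24 were at p under 0.05 after UUO, beside 11% of all genes, and 7 of those 11 had the same sign. Within the sets the differences were -2.18 and -2.50 for Il33, -0.07 and -0.76 for Depp1, -0.80 and -0.25 for Dusp1, and -0.89 and 0.01 for Herpud1, which thus rested on set 1. The change of the genotype difference had an unadjusted p under 0.05 at 13 of the 24, beside 4.74% of all genes, which the choice of large untreated differences favours, and no gene passed an adjusted p of 0.05 (0% of those tested).

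**Figure D4:**
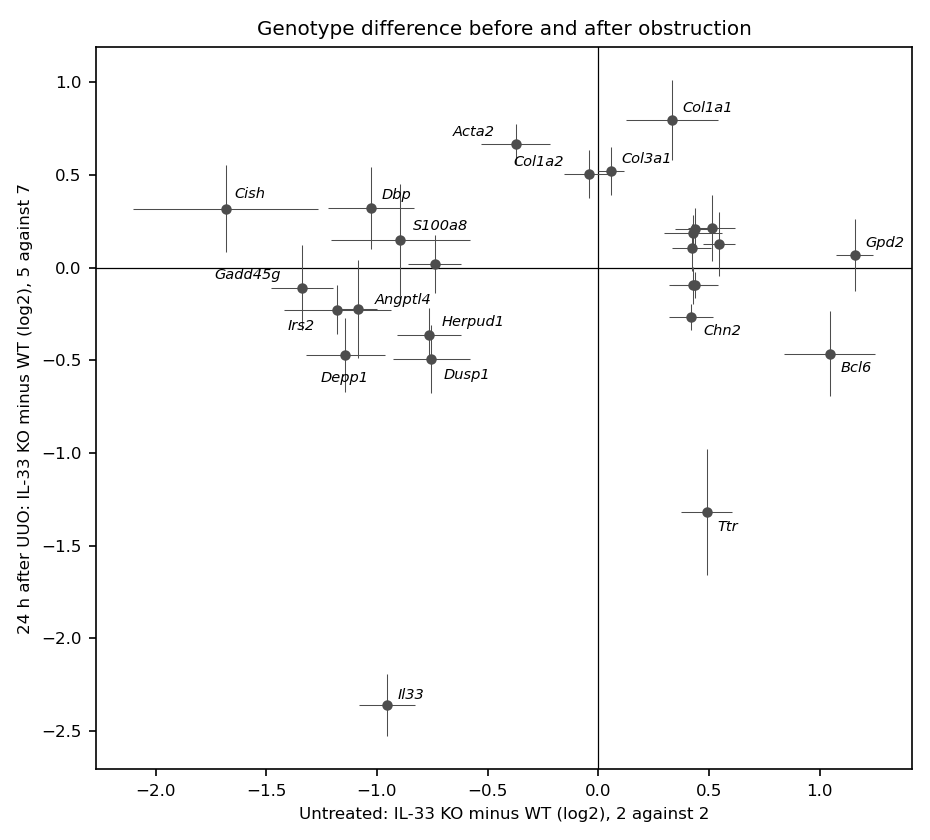
Genotype difference (KO minus WT, log2) in untreated kidneys (horizontal, 2 against 2 arrays) against that 24 h after UUO (vertical, 5 against 7 arrays) for genes among the 24 largest untreated differences and for Col1a1, Col1a2, Col3a1 and Acta2; bars are standard errors. Il33 lies low on the left, Gpd2 far right near 0 on the vertical axis, and the collagens and Acta2 lie high near the centre.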

How the data were processed

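Kidney RNA was hybridized by the authors to Illumina BeadChips (BeadStudio 2 in the submitters' processing notes) and imported with beadarray. The deposited intensities are linear, 1 per gene symbol, from 95.5 to 23471, with array medians of 132 to 133. Background correction, normalization and the joining of probes are not given in the sources used here, and the table holds no detection p-values. Of the symbols, 14303 matched a RefSeq symbol and 2630 a synonym.

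Intensities were quantile-normalized over 16 arrays and taken to log2. The 4 untreated arrays were fitted alone with lmFit and eBayes of limma 3.58.1 (R 4.3.3), because the spread within groups was larger after UUO (median SD 0.079 against 0.0635), with Benjamini-Hochberg adjustment over 18132 genes. The 12 UUO arrays were fitted likewise, and also with the set of mice as a block, and the change of the genotype difference came from one model over 16 arrays. The lenient threshold follows the study's methods. The fits were tested on simulated data. Tables and plots were made with Python 3.11.15, pandas 2.3.3 and matplotlib 3.10.9.

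Genes and lists were chosen with earlier results of these data known. Named were Il33, the 12 largest differences of either sign at p under 0.05 without overlap, Col1a1, Col1a2, Col3a1 and Acta2, Il33's neighbours, and of each list the first 3 members and the 2 with the smallest p; other names were chosen after their values were seen. A few genes are counted but not reported here by name. The 28 lists held 457 distinct gene symbols, of which 425 were measured. Promoter windows are RefSeq's on GRCm38.p6.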

Additional observations from a re-analysis of the deposited data

Results flagged for a closer look

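Of 16 groups of obstructed kidneys whose levels were searched for a value far from the rest, 1 held one. Il33 in WT kidney 3818 after UUO was at 8.39, while the next lowest of the 7 WT kidneys was at 9.10, a gap of 0.605 of the whole range. A gap of this kind turns up by chance in about 1 in 20 groups. The untreated groups hold 2 arrays each and were not searched.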

How the results depend on the processing

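With eBayes fitted with a trend of the variance on the level, 3 genes instead of 0 passed an adjusted p of 0.05: Gpd2 (0.018), Angptl4 (0.035) and Gadd45g. The 3 genes past the lenient threshold became 7 with the trend, 6 with the deposited intensities, 6 with median centring and 0 in one model over 16 arrays; Csrnp1, an immediate early gene, was among those added in the first 3. Leaving out 1 array at a time, where the lone array of a group is assumed to vary like the other group, gave 0 to 1 genes. Without WT replicate 3811, KO replicate 3813 or KO replicate 3814 there were 0, and without WT replicate 3812 there was 1, Gadd45g. After background subtraction 2 genes passed, Gpd2 and Il33. The cause was not tested. Of 335 recomputed differences of 28 genes, 333 kept their direction. Col1a1 turned to -0.00997 without KO replicate 3814 and reached 0.68 without KO replicate 3813. Col1a2 turned to 0.12 without KO replicate 3813 and was -0.21 without KO replicate 3814. The Il33 difference ran from -1.99 to -0.76 with adjusted p from 0.104 to 1 (limma), Gpd2 from 1.06 to 1.74, and Angptl4 from -1.19 to -0.99. List medians moved by more than their spread between arrays in 65 of 336 cases. The counts after UUO (1) and for the change of the genotype difference (0) were the same under the alternatives added after seeing the data. With the set of mice as a block they were also 1 and 0. No paired analysis was possible because the array numbers are not shared between the groups and the set of the untreated kidneys is not given. Detection is limited for the 54.6% of genes near background.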

Other observations

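Cholesterol synthesis and uptake genes, which SREBP2 is known to drive, were higher at 12 of 18 measured members with a median difference of 0.05 in untreated KO kidneys, and that median was -0.03 without WT replicate 3812. The transcription factor gene Srebf2 itself was at 8.57 and 8.44 in WT and at 8.03 and 8.22 in KO (difference -0.38, adjusted p = 0.823 by limma), and Sqle, the squalene epoxidase, differed by -0.20. Cell cycle genes were higher at 16 of 22 with a median of 0.06, none at an unadjusted p under 0.05. Of the 22, 13 had a mean level below the median of all genes.

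Cyp4a12b, a fatty acid hydroxylase of the Cyp4a family, was at 9.36 and 9.31 in WT and at 8.68 and 8.76 in KO (difference -0.62, adjusted p = 0.258 by limma), and Csrnp1 was at 8.40 and 8.29 in WT and at 7.72 and 7.76 in KO (difference -0.60, adjusted p = 0.285 by limma). Both were chosen after their values were seen. After UUO they differed by 0.15 and -0.18.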
